A study of Arabidopsis thaliana with 8 samples.

Results

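*FHL* and *HYH* are light signalling genes of Arabidopsis. Their signals were followed in *fhy3* and wild type seedlings in constant red light. Members were taken by symbol from the array platform's table of probe sets and genes. Each of these 2 genes had 1 probe set, a group of short oligonucleotides read together as 1 signal, out of 17660 probe sets tested. *FHL* is AT5G02200 on chromosome 5 and *HYH* is AT3G17609 on chromosome 3. The mutant was *fhy3-4* and was set against its isogenic wild type, both in the No-0 ecotype. All seedlings were grown for 7 days in cycles of 12 h white light and 12 h dark, on medium with 2% sucrose at 21 °C, and were then moved to constant red light of 660 nm. Each genotype was sampled at 24, 32, 40, and 48 h in red light, with 1 Affymetrix ATH1 array of about 100 pooled whole seedlings per genotype and time, giving 8 arrays. The mutant was a line of 1 allele, and whole seedlings mix all organs.

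Phytochrome A is a photoreceptor that is made in the cytosol and acts in the nucleus. It has no nuclear import signal of its own and is carried in by the small proteins FHY1 and FHL. FHY3 and FAR1, transcription factors derived from transposases, bind the promoters of *FHY1* and *FHL* and activate them. Signals from phytochromes and cryptochromes also meet at HY5 and HYH, closely related bZIP transcription factors. Both act in the light response of seedlings and are marked for degradation by the COP1 ubiquitin ligase in darkness. The study asked how FHY3 feeds light into the circadian clock in red light.

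Mean signals of the arrays lay between 402.4 and 438.8, and the Spearman correlation of any pair of arrays lay between 0.953 and 0.990. No table used here pairs a probe set with *FHY3*, so the genotype labels were not checked on the mutated gene. As genotype and time had 1 array each, the only repeated measurement was 24 against 48 h, which fall at the same circadian phase. In the study's terms 24 and 48 h are subjective dawn, 32 h is subjective afternoon, and 40 h is subjective night.

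*FHL* had a lower signal in *fhy3* at every time, and the gap was wide at dawn and in the afternoon and nearly closed at night. In *fhy3* the *FHL* signal read 199.9, 203, 254, and 177 at 24, 32, 40, and 48 h. The wild type arrays gave 324, 452, 264, and 541 at the same times. The groups did not overlap, since the highest *fhy3* array, at 40 h, was under the lowest wild type array, which was also at 40 h. All arrays of *fhy3* below all arrays of wild type was seen for 5.23% of the probe sets tested, and a lower signal at 4 of 4 times for 14.2%.

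**Figure D1:**
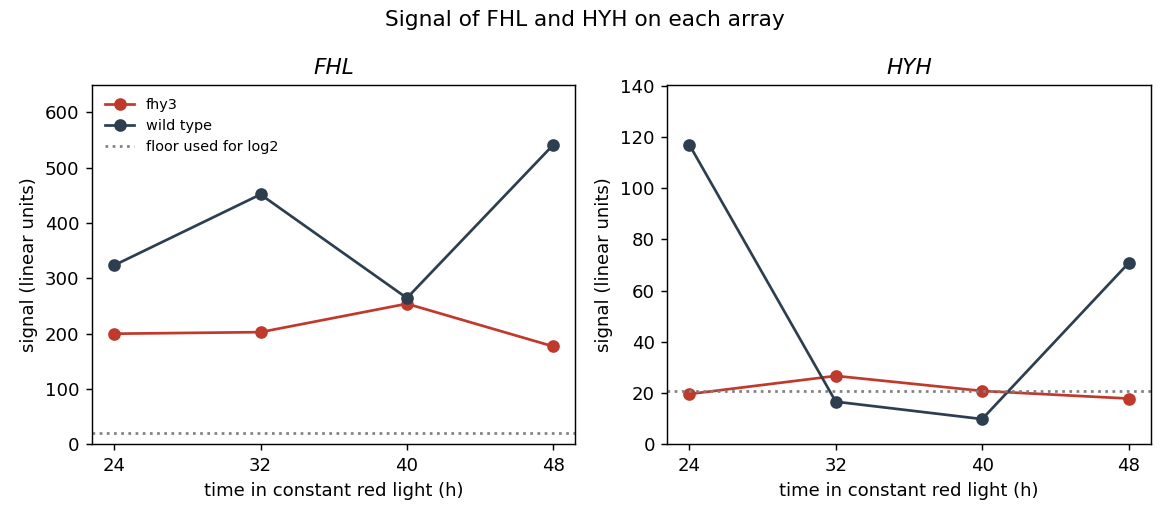
Signal (linear units) of *FHL* (left) and *HYH* (right) against time in constant red light (h), 1 array per point, in *fhy3* (red) and wild type (dark blue). The dotted line is the floor of 20.7 applied before taking log2. The *FHL* lines come close at 40 h, at 254 in *fhy3* and 264 in wild type, and the *HYH* lines cross.

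The ratio of *fhy3* to wild type *FHL* signal was 0.618, 0.449, 0.961, and 0.327 in the order of the times. On the log2 scale the differences, *fhy3* minus wild type, were −0.69, −1.16, −0.06, and −1.61. Set among all probe sets tested, with the most reduced in *fhy3* first, *FHL* ranked 495, 302, 6926, and 42 at those times. At 40 h it therefore stood within the bulk of the array, while at the other times it lay in the lower tail. The 2 dawn arrays differed within each genotype. From 24 to 48 h the log2 signal of *FHL* changed by −0.18 in *fhy3* and by 0.74 in wild type, where only 4.09% of probe sets changed by more, against median absolute changes of 0.136 in *fhy3* and 0.160 in wild type.

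**Figure D2:**
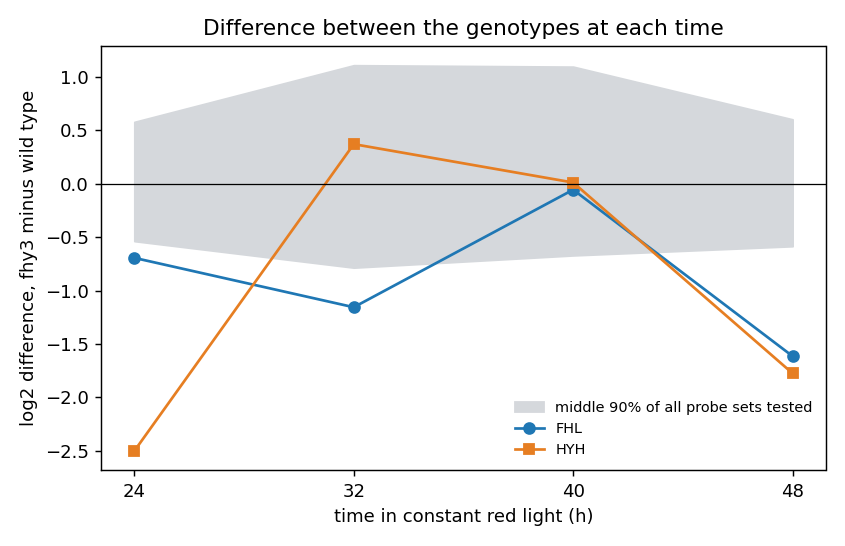
Difference in log2 signal, *fhy3* minus wild type, against time in constant red light (h) for *FHL* (circles) and *HYH* (squares), with the middle 90% of all probe sets tested in grey. *FHL* lies below the grey band at 24, 32, and 48 h, and *HYH* at 24 and 48 h.

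Differences between the genotypes were tested with limma over all 17660 probe sets, on log2 signals in which any signal under a floor of 20.7 was set to it. The spread came from the dawn pairs, and p-values were adjusted over all probe sets by Benjamini-Hochberg with a threshold of 0.05. The mean level of *FHL* over the 3 sampled phases was lower in *fhy3* by a log2 difference of −0.79 (SE 0.21, 95% interval −1.37 to −0.21), which did not pass the threshold (limma adjusted p = 0.0982). In that test 2.56% of all probe sets passed as lower in *fhy3* after adjustment, and 13.9% at an unadjusted p under 0.05. At dawn the difference was −1.15 (SE 0.28, 95% interval −1.94 to −0.37, limma adjusted p = 0.242), with 8.74% of probe sets lower at an unadjusted p under 0.05. In the afternoon it was −1.16 (SE 0.40, limma adjusted p = 0.176), and at night −0.06 (SE 0.40, 95% interval −1.17 to 1.05, limma adjusted p = 0.958). An exact sign-flip test of the 4 differences gave a two-sided p of 0.125 for *FHL*, which is the smallest that 4 times allow.

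The shape of the *FHL* course over the day was compared as the change between phases. From dawn to night *FHL* changed by a log2 value of 0.43 in *fhy3* (limma adjusted p = 0.489) and by −0.66 in wild type (limma adjusted p = 0.435), so the 2 genotypes moved in opposite directions. The difference of those changes was 1.097 (SE 0.49, 95% interval −0.26 to 2.45) and did not pass (limma adjusted p = 0.415). From dawn to afternoon the change was 0.11 in each genotype, with a difference near 0 and an interval of −1.36 to 1.36.

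Rhythm was called by criteria adapted from the study's methods. The best of a set of 24 h sine waves had to correlate with the 4 arrays at a p under 0.01, taken here as two-sided, which the methods do not state, and the change between peak and trough had to reach that of a 1.5-fold wave. The methods' alternative route, by absolute change, was not applied, so the shares of probe sets called are those of this version alone. *FHL* met neither criterion in *fhy3*, where the best wave peaked at phase 15, in the subjective night (r = 0.956), and the change of 1.35-fold was under the 1.39-fold needed. In wild type the best wave peaked at phase 4, in the subjective morning, with a weaker correlation (r = 0.698) and a change of 1.67-fold, over the 1.38-fold needed. The fitted amplitude of *FHL* was 39.4 signal units in *fhy3* and 116 in wild type. *FHL* was therefore not called rhythmic in either genotype, where 10.7% of all probe sets were called in *fhy3* and 12.5% in wild type.

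*HYH* stayed low at every time in *fhy3*, whereas the wild type arrays had a peak at both dawn times. In *fhy3* the *HYH* signal read 19.6, 26.7, 20.8, and 17.85 at 24, 32, 40, and 48 h. The wild type arrays gave 117, 16.6, 9.83, and 70.7 at the same times. The groups overlapped, with the 2 dawn arrays of wild type the highest of all 8. Of the *fhy3* arrays, the 2 at dawn were under the floor of 20.7, and so were the 2 afternoon and night arrays of wild type. Signals under the floor are near the background of the array and have no order among themselves.

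With the floor applied, the log2 differences of *HYH* at the 4 times were −2.50, 0.37, 0.01, and −1.77, and both dawn values are lower bounds on the size of the difference because the *fhy3* arrays were at the floor. A signal at least 1.5-fold lower in *fhy3* at both dawn times, as *HYH* had, was seen for 1.88% of probe sets. The dawn peak of wild type was repeated at 48 h but smaller, by a log2 change of −0.73 from 24 h, and 4.40% of probe sets changed by more in wild type.

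Fitted with limma, *HYH* differed at dawn by −2.14 (SE 0.27, 95% interval −2.89 to −1.39). The value is itself a lower bound in size, and as both *fhy3* dawn arrays were set to the floor, their difference is exactly 0 and adds no spread to the fit, so that the SE and interval of this and the other *HYH* contrasts may be too narrow. The limma adjusted p was 0.155, so the difference did not pass the threshold, which 0.0736% of all probe sets passed. In the afternoon the difference was 0.37 (95% interval −0.69 to 1.43, limma adjusted p = 0.577) and at night 0.01 (95% interval −1.05 to 1.07, limma adjusted p = 1). The mean level over the phases was lower in *fhy3* by −0.59 (SE 0.20, 95% interval −1.14 to −0.03, limma adjusted p = 0.145), and an exact sign-flip test over the 4 times gave a two-sided p of 0.5. These sizes rest on where the floor stands. With a floor at 20% of the array mean in place of 5%, the dawn difference of *HYH* was −0.25 and its mean level −0.08.

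The test of the time course itself asked whether the change of *HYH* over the day differed between the genotypes. From dawn to afternoon *HYH* changed by a log2 value of 0.37 in *fhy3* (limma adjusted p = 0.790) and by −2.14 in wild type (limma adjusted p = 0.0642). From dawn to night it changed by 0.01 in *fhy3* (limma adjusted p = 0.996) and by −2.14 in wild type (limma adjusted p = 0.106). Both wild type changes end at the floor, so they have the same value and are lower bounds in size. The difference of the changes was 2.51 to the afternoon (SE 0.47, 95% interval 1.21 to 3.80, limma adjusted p = 0.185) and 2.15 to the night (SE 0.47, 95% interval 0.85 to 3.44, limma adjusted p = 0.254). Neither passed, and over all probe sets limma passed 0 for the afternoon change, against 16.2% at an unadjusted p under 0.05, and 3 (0.017%) for the night change, against 13.9%.

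*HYH* was not called rhythmic in either genotype with a two-sided p under 0.01. In *fhy3* the best wave peaked at phase 9, with r = 0.982 and an amplitude of 4.76 signal units. On the signals as deposited the correlation fell short and the change of 1.42-fold reached the 1.39-fold needed. With signals set to the floor the reverse held, as the correlation passed (r = 0.9998) and the change of 1.29-fold was under the 1.33-fold needed. That correlation was fixed by the floor, as both dawn arrays were set to it and the 40 h array, at 20.8, stood beside it. A wave peaking at phase 8 takes equal values at those times, so a high r follows for any such gene and shows no rhythm. With a one-sided p under 0.01 *HYH* was called rhythmic in *fhy3*, where 2950 probe sets were called against 1898. In wild type the best wave peaked at phase 0, at subjective dawn, with r = 0.925 and an amplitude of 53.7 signal units. The change was at least 4.54-fold with the afternoon and night arrays set to the floor, and the correlation fell short. The 4 arrays of a genotype sample the day at 3 phases only, so a correlation that fell short reflects mainly the gap between the 24 and 48 h arrays.

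The 2 genes thus shared a lower signal in *fhy3* at both dawn times. At 32 h the log2 difference was −1.16 for *FHL* and 0.37 for *HYH*, each from 1 pair of arrays. Neither passed the threshold (limma adjusted p = 0.176 and 0.577). The *HYH* value sets 26.7 in *fhy3* against a wild type array of 16.6 that was raised to the floor. Whether the 2 genes differed from each other at 32 h was not tested. At 40 h the log2 difference of *FHL* was −0.06, from signals of 254 and 264. The 0.01 of *HYH* at 40 h was fixed by the floor, with the *fhy3* array at 20.8 and the wild type array, at 9.83, raised to 20.7. Closeness of the genotypes at 40 h is therefore not shown for *HYH*. For *FHL* the 2 signals were close, but the 95% interval at night was −1.17 to 1.05, so closeness is not shown there either. In wild type *FHL* was high in the afternoon, at 452, when *HYH* was under the floor, at 16.6. Over all 8 arrays the Pearson correlation of their log2 signals was 0.51, a description over arrays that both genes share. It rests partly on *HYH* signals set to the floor, on 2 arrays of each genotype.

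Few of their pathway partners could be set beside them. Of 90 symbols of light signalling genes listed for phytochromes and cryptochromes, the FHY3 family, phytochrome A import, HY5 relatives, COP1, SPA and DET1 complexes, PIF factors and direct targets of FHY3 or of HY5 and HYH, 4 had a probe set of 1 named gene, and these were *FHL*, *HYH*, *CUL4* and *HEMB1*. The table of names used here left 8730 probe sets unnamed, so a listed gene without a named probe set may still be on the array. The study reports *CCA1* and *ELF4*, both listed as FHY3 targets, from its arrays, with a loss of peak expression in *fhy3* for *CCA1* and little change for *ELF4*. It adds that *ELF4* was already very low in wild type in red light, and cites a strong loss of *ELF4* in *fhy3* in white light. *FHY1*, *HY5*, *FHY3* and *FAR1* were not analysed here. In the test of the mean level, in which 6.26% of all probe sets passed, none of the 4 passed after adjustment. At an unadjusted p under 0.05 the lower ones were 3, as were 13.9% of all probe sets. They were *FHL* and *HYH* themselves and *HEMB1*, so the count adds only *HEMB1* to the members. *HEMB1*, a listed FHY3 target that encodes an early enzyme of chlorophyll and heme synthesis, lay between 977 and 1087 in *fhy3* and between 1298 and 1624 in wild type. All its *fhy3* arrays were below all its wild type arrays, as was seen for 5.23% of all probe sets. Its log2 difference was −0.47 (SE 0.08, limma adjusted p = 0.0514). *CUL4*, the cullin scaffold of the ubiquitin ligases that COP1 works with, lay between 949.6 and 987 in *fhy3* and between 902 and 1137 in wild type, with a log2 difference of −0.05 (limma adjusted p = 0.681).

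A second group was collected by annotated name, for light signalling or light response, after the data had been seen. It held 9 genes, of which 8 were tested. After adjustment 1 passed as lower and 0 as higher, against 2.56% and 3.7% of all probe sets. At an unadjusted p under 0.05 there were 3 lower, *FHL* among them, and 2 higher, against 13.9% and 18% of all probe sets, and the median log2 difference was −0.19 against 0.02 over all probe sets. The gene that passed was *BLUS1* (AT4G14480), a kinase of blue light signalling in guard cells. Over the 4 times it read 52.8, 38.6, 29.6, and 43.6 in *fhy3* against 107, 96.5, 84.3, and 104 in wild type. Every *fhy3* array of *BLUS1* was under every wild type array, as was seen for 5.23% of all probe sets. The mean level of *BLUS1* was lower by −1.32 (SE 0.10, limma adjusted p = 0.0312), although it no longer passed in an additive fit that left out any 1 of the times.

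*AFR*, an F-box gene of phytochrome A signalling, was, like *HYH*, lower in *fhy3* at both dawn times. Its signals were 30.8, 29.9, 16.7, and 31.1 in *fhy3*, and in wild type 65.6, 5.39, 26.3, and 60.1. Wild type was higher at 24, 40, and 48 h and lower at 32 h, so the groups overlapped, and the mean level differed by −0.28 (limma adjusted p = 0.0932). The *fhy3* array at 40 h and the wild type array at 32 h were under the floor, so the size of that difference depends on it. *CSN5B*, a subunit of the COP9 signalosome, and *LSH9*, of the LSH gene family, stood at the other end with log2 differences of 0.75 and 0.74 (limma adjusted p = 0.0687 and 0.0567).

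*HYH* was also set beside other genes named as bZIP factors. There were 23, of which 17 were tested, *HYH* included. After adjustment 1 passed as lower in *fhy3* and 0 as higher, against 2.56% and 3.7% of all probe sets. At an unadjusted p under 0.05 there were 4 lower, *HYH* among them, and 4 higher, against 13.9% and 18% of all probe sets. The median log2 difference was −0.07. *HYH* stood near the lower end at −0.59, after *BZIP34* at −0.89 (limma adjusted p = 0.0558) and *BZIP61* at −0.67 (SE 0.09, limma adjusted p = 0.0399). Like *HYH*, *BZIP34* had 2 *fhy3* arrays under the floor, so the size of its difference depends on the floor. *BZIP61* read 670.2, 616, 339, and 578 in *fhy3* over the 4 times, against 828, 1049, 608.5, and 828 in wild type. It was lower in *fhy3* at each time, although 2 *fhy3* arrays were above the lowest of wild type, and it no longer passed in 7 of 12 alternative settings (limma adjusted p up to 0.265). At the upper end, *bZIP44* differed by 0.92 (limma adjusted p = 0.0569).

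**Figure D3:**
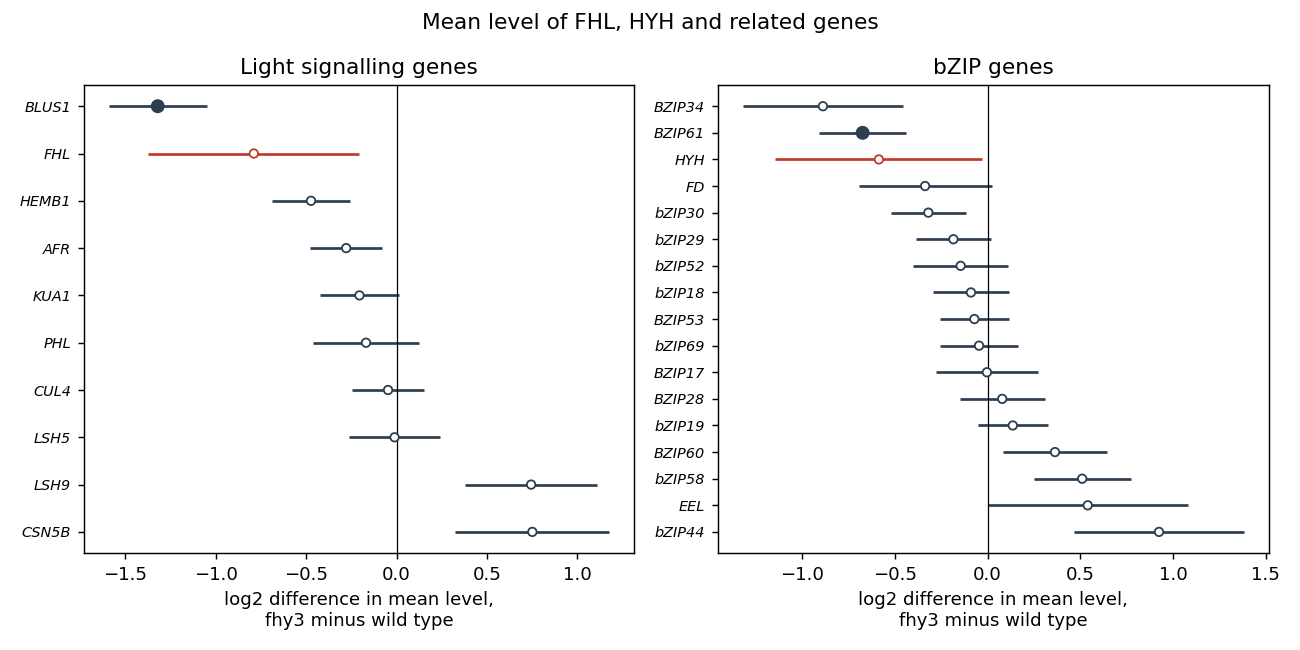
Log2 difference in mean level, *fhy3* minus wild type, for light signalling genes (left) and genes named as bZIP factors (right), 1 gene per line, with 95% intervals from limma. *FHL* and *HYH* are in red, and filled points (*BLUS1* and *BZIP61*) passed an adjusted p of 0.05.

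The genes whose log2 signals ran most like *FHL* over the 8 arrays, among 10062 other probe sets with 1 named gene, were *SFP2*, of the sugar porter family (Pearson r = 0.948), AT5G13760 (0.945), AT4G17250 (0.939), *PRK* (0.932) and AT2G44360 (0.932). *PRK*, phosphoribulokinase of the Calvin cycle, had 4086, 4377, 5233, and 4056 in *fhy3* and 5410.4, 5610, 4598, and 5993 in wild type. Like *FHL*, *PRK* was highest at night in *fhy3* and lowest at night in wild type, but at 40 h its *fhy3* array was above its wild type one. AT4G17250 was under the floor on 3 *fhy3* arrays and 1 wild type array, so its correlation rests partly on signals set to the floor. In all, 18 genes had a correlation with *FHL* of at least 0.9.

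The genes most like *HYH* were AT1G75720 (r = 0.986), AT3G27950 (0.977), *GR* (AT3G54660, 0.973), AT1G55960 (0.968) and AT5G59400 (0.962), and 39 genes reached 0.9. AT3G27950 was under the floor on 3 *fhy3* and 2 wild type arrays. *HYH* itself was under it on 2 *fhy3* and 2 wild type arrays, so every correlation with *HYH* rests partly on signals set to the floor. *GR*, a glutathione reductase that keeps glutathione in its reduced form, had 1186, 1188, 1064, and 1147 in *fhy3* and 1559.8, 1138, 1144, and 1456 in wild type. AT1G55960 had 173, 232, 205, and 171 in *fhy3* and 416, 202, 166, and 340.5 in wild type. All signals of *GR* and AT1G55960 stood well over the floor, and in both genes the 2 wild type dawn arrays were the highest of the 8. The correlations were chosen as the highest of many and are given as a description, without a test.

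**Figure D4:**
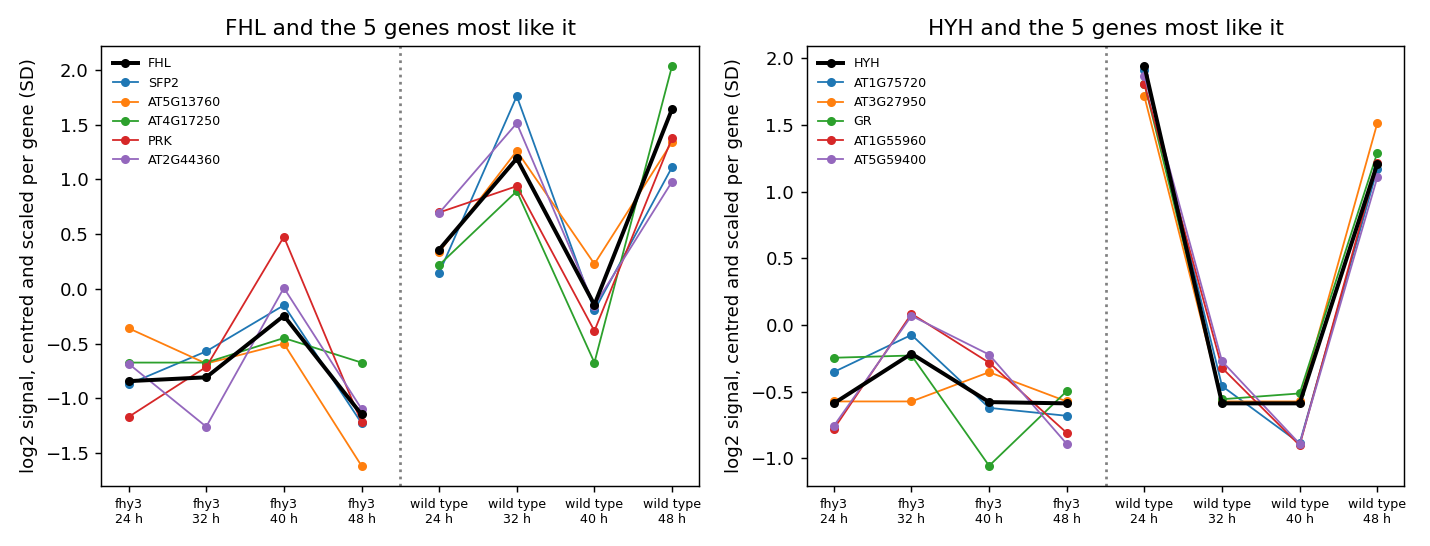
Log2 signal of *FHL* (left) and *HYH* (right), in black, and of the 5 genes most like each, centred and scaled per gene (SD) on the 8 arrays, *fhy3* left of the dotted line and wild type right of it. The *HYH* group shares high wild type arrays at 24 and 48 h, and in the *FHL* group the wild type arrays are lowest at 40 h.

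Neither locus overlaps another annotated gene. The gene next to *FHL*, AT5G02210, had signals between 8.72 and 29.2 in *fhy3* and between 9.59 and 21.4 in wild type. *IAA31*, next to *HYH*, lay between 11.8 and 19.9 in *fhy3* and between 5.94 and 18.6 in wild type, under the floor on every array. The other neighbours, *PCS1* and *RBL14*, were not analysed here.

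As whole seedlings were used, fewer cells of a type and less RNA per cell cannot be told apart. Green tissue markers, of which 5 of 9 had a probe set, summed to between 29756 and 32015 in *fhy3* and between 29683 and 34307 in wild type. Of the 5, 0 passed in mean level after adjustment, where 6.26% of all probe sets passed in either direction. Their log2 differences lay between −0.20 and 0.09. Of 9 root markers the 2 with a probe set were both higher in *fhy3*, as were 3.7% of all probe sets. These are the root hair expansins *EXPA7* (log2 difference 1.99, limma adjusted p = 0.0373) and *EXPA18* (1.13, limma adjusted p = 0.0318), whose signals summed to between 312 and 766 in *fhy3* and between 117 and 314 in wild type, and each no longer passed in 7 of 12 alternative settings. No marker of either list was at 0, and the part of root content in the *FHL* and *HYH* differences was not tested. Of 8 flower markers 1 had a probe set and was too low to test, and none of 9 markers of maturing seed had one.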

How the data were processed

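The deposited values are linear intensity signals of 22810 probe sets on 8 arrays, with 1 array per genotype and time. MAS5 stands in the submitters' processing notes and D-chip in the study's methods, and which of them made the values is not settled. The scaling between arrays is therefore the authors' own. Names came from an annotation table of the platform, matched to TAIR10.1 loci, which lists 13513 probe sets with 1 gene. Control (64), organelle (87), several-gene (503) and unmatched (5) probe sets were left out, and 8730 unlisted ones were kept unnamed. Probe sets whose mean lay under 5% of the array-wide mean of 413.5 in both genotypes, 4491 in number, were not tested.

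Signals under 20.7 were set to that value and log2 was taken. limma 3.58.1 in R 4.3.3 fitted a mean for each genotype and sampled phase, with 2 residual and 2.01 prior degrees of freedom, so p-values rest on the spread of the dawn pairs, and an afternoon or night array is assumed to vary as they do. Scripts ran in Python 3.11.15 and were tested on simulated data. The number of arrays limits the precision. Members, lists and tests were chosen with earlier results of these data known. Named genes are the members, list genes with a probe set, and for each member the 5 named probe sets of highest Pearson r. The lists by annotated name, and *BLUS1*, *BZIP61*, *EXPA7* and *EXPA18* with them, were added after their values were seen. Alternatives changed the floor, the filter, the scaling, the variance model, the probe sets, the fit and the rhythm criteria.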

Additional observations from a re-analysis of the deposited data

Results flagged for a closer look

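For *HYH*, the difference between the genotypes was not the same at all times. Both *fhy3* dawn arrays were below both wild type dawn arrays, while with the floor applied the log2 differences, *fhy3* minus wild type, were 0.37 at 32 h and 0.01 at 40 h (limma adjusted p = 0.577 and 1). The change from dawn, *fhy3* minus wild type, differed by 2.51 on the log2 scale to the afternoon and by 2.15 to the night (limma adjusted p = 0.185 and 0.254, over alternatives 0.126 to 0.998 and 0.144 to 0.997). Neither passed the threshold. The wild type arrays at 32 and 40 h were under the floor, so no difference in the opposite direction is shown.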

How the results depend on the processing

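No paired analysis was possible because all titles carry the same replicate number, as far as pairs by that number go. The arrays were paired by time in the additive fit of genotype and time and in the sign-flip tests. The lower mean level of *FHL* kept its direction in 13 of 13 alternatives, from −1.15 to −0.64, with an adjusted p of 0.0790 to 0.356 from limma. That of *HYH* also kept its direction, from −1.42 to −0.08 (limma adjusted p 0.142 to 0.938). In an additive fit of genotype and time, *HYH* differed by −0.97, and by −0.47 without the 24 h arrays. With no floor, log2(signal + 1), the *HYH* mean level was −0.19 and its changes from dawn 2.87 and 3.23. With a floor at 20% of the mean these changes were both 0.25, and *BLUS1* differed by −0.20. The difference in the *FHL* change from dawn to afternoon, −0.0019, became 2.87e-05 with quantile normalization, and both are near 0. *HYH* in *fhy3* met the rhythm criteria with a two-sided p under 0.05 (r = 0.982), when 4330 probe sets were called rather than 1898, and with a one-sided p under 0.01. With quantile normalization it met neither criterion in *fhy3*, with a change of 1.38-fold. The one-sided p and the floor in the rhythm criteria were chosen after seeing the data. The numbers of probe sets passing in mean level, 452 lower and 654 higher, were 582 and 1021 with no floor, 566 and 537 with quantile normalization, 585 and 561 with the 20% floor, 712 and 535 with no filter, 232 and 347 with named probe sets only, and 55 and 53 in the additive fit, which gave between 5 and 11 calls in all when a time was left out. *HEMB1* passed with no floor (limma adjusted p = 0.0455) and with an intensity trend (limma adjusted p = 0.0396). With 1 array per genotype and time, differences at a single afternoon or night have no repeat of their own.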
